A study of Mus musculus with 415 samples.

Results

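The genes considered here are Alb, Afp, Ttr, Apoa1 and Dab2, 5 genes that are active in visceral endoderm, and the data are the accessible regions at their loci in single mouse cells. Members were the regions of the deposited table that overlapped any of 4 windows fixed by position on mouse build mm9, 1 for Alb and Afp together and 1 for each of the other genes. These windows held 5 of the 23180 regions. The Ttr window held 1 region, the Apoa1 window, which also covers neighbours of Apoa1, held 2, and the Dab2 window held 2. No region of the table overlapped the Alb and Afp window. Regions were taken by position only and not by a measured value, but the members were chosen with earlier results of these data known.

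The cells came from the R1 line of mouse embryonic stem cells. They had grown for 48 hours as hanging drops, which gives embryoid bodies, and were then treated for 4 days with retinoic acid, which pushes such cells to differentiate. The labels give its concentration as 0.5 mM. Each sample was 1 cell, captured and tagmented on a Fluidigm C1 chip. The assay, single-cell ATAC-seq, marks accessible DNA as the places where Tn5 transposase inserts sequencing adapters. All cells shared 1 treatment and time point, with no untreated group and no named replicate cultures, so the series was 1 sample and no test or p-value was computed from cells. Intervals are exact 95% intervals and cover the counting of cells only.

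Visceral endoderm is the epithelium that surrounds the early mouse embryo and feeds it by taking up maternal proteins and by secreting carriers into the yolk sac and embryo. All gene products but Dab2 are secreted and are made later by the fetal liver too, whose gene programme this tissue partly shares. Alpha-fetoprotein (Afp) and albumin (Alb) are related plasma carriers encoded by adjacent genes, transthyretin (Ttr) carries thyroid hormone and, bound to retinol-binding protein, retinol, and apolipoprotein A-I (Apoa1) is the main protein of high-density lipoprotein. Dab2 is not secreted. It is an endocytic adaptor that links receptors of the low-density lipoprotein receptor family to clathrin-coated pits, and it serves the uptake side of the same epithelium. HNF1 and forkhead (FOXA) proteins are among the transcription factors known to act at liver and visceral endoderm genes.

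The 250 bases before the start of Alb, Afp and Apoa1 are shown because these are secreted carriers, of which the first pair had no region in its window and Apoa1 had 2. They come from RefSeq on build GRCm38.p6 and all lie on the plus strand, at chr5:90460620-90460869, chr5:90490464-90490713 and chr9:46228380-46228629. These positions are on another build than the accessibility table and cannot be set beside its coordinates. Capitals mark matches, on either strand, to the HNF1 core motif GTTAAT and to the forkhead motifs TGTTTAC and TGTTTGC.
Alb: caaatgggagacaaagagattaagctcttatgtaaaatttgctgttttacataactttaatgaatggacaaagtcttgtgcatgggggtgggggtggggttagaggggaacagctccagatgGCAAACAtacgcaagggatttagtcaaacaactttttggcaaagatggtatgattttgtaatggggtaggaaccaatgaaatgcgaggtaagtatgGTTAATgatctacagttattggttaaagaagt
Afp: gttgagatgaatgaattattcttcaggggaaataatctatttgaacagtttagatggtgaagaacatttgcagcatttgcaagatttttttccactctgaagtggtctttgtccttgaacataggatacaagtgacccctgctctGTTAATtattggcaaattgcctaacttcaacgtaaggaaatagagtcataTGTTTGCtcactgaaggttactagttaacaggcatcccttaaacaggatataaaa
Apoa1: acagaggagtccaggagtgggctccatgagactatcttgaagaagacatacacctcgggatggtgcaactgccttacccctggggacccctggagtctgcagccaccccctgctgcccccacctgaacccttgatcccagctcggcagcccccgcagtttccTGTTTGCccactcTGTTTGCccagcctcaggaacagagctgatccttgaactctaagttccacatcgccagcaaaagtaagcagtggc
Alb and Afp each held 1 HNF1 match and 1 forkhead match, and Apoa1 held 2 forkhead matches and no HNF1 match. The HNF1 match of Alb began 32 bases before the start, the forkhead match of Afp began 55 bases before it, and those of Apoa1 began 88 and 75 bases before it. Of 2 listed Dab2 promoters, 1 held an HNF1 match and neither a forkhead match. Over 32851 promoters of that length, 6.43% held GTTAAT and 7.29% held a forkhead match, and no overlap between the marked motifs occurred in the 3 sequences printed. Among 3 other motifs searched on both strands, AGATAA, the GATA motif, was in none of these 5 promoters and in 9.99% of all. TATAAA was in that of Afp (12.4% of all) and CCAAT in those of Alb and Afp (33.8% of all). Such matches describe the letters and do not show binding.

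Cells differed widely in depth. A median cell had 3928 open regions, with a range of 756 to 12267, and between 791 and 25069 fragments. Any deposited value above 0 made a region open in that cell. The number of cells expected from depth was taken from a fit of 1 − exp(−region rate × cell rate) to the whole table, which matches each region's number of open cells and each cell's number of open regions. In a shallow cell, a value of 0 can mean no more than that the region was not sampled.

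The Alb and Afp window, chromosome 5 from 90870000 to 90960000, was empty over 90 kb. Each region of the table was open in at least 31 cells (7.47%), so an empty window says only that no region as frequent as that was listed. Empty windows were common. Of 28514 consecutive windows of this length laid from the first to the last region of each chromosome, 56.8% held no region. The nearest listed region ended 9.53 kb before the window (90860122 to 90860468) and the next one after it began 37.03 kb beyond (90997026 to 90997848). Alb and Afp accessibility was not analysed here beyond these flanks, which are described with the cell clusters.

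The Ttr region, chromosome 18 from 20823632 to 20824802, was the widest of the members at 1170 bp. It was open in 60 cells (14.5%, interval 11.2% to 18.2%), which equals the median share of 14.5% over the whole table. In open cells it held a median of 1 fragment and at most 3.49. More than 1 fragment was found in 15 of the 60 open cells, or 25%, and over all open values of the table in 29.5%. Its share rose with depth much as the fit expected, from 5.77% in the shallowest of 4 equal classes of cells (expected 5.51%) through 10.6% and 18.3% to 23.3% in the deepest (expected 26.6%).

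The Apoa1 window held 2 regions, 11.4 kb apart. The first, chromosome 9 from 46038005 to 46038576 (571 bp), was open in 56 cells (13.5%, 10.4% to 17.2%). The second, from 46049972 to 46050301 (0.329 kb), was open in 31 cells (7.47%, 5.13% to 10.4%), which is the lowest number of open cells that any region of the table has. At least 1 of them was open in 81 cells (19.5%, 15.8% to 23.7%). The first region followed depth, with 3.85% of the shallowest and 27.2% of the deepest class open where 5.11% and 24.9% were expected. The second did so less closely. It was open in 2.88%, 9.62%, 7.69% and 9.71% of the cells from the shallowest to the deepest class, and 14.1% were expected in the last, within the interval of 4.75% to 17.1%. The table names no genes, so which gene of the cluster of apolipoprotein genes (Apoa1, Apoc3, Apoa4 and Apoa5, in the gene order of RefSeq) lies at either region was not determined.

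The Dab2 window also held 2 regions, 57.1 kb apart. The first, chromosome 15 from 6336404 to 6337105 (701 bp), was open in 81 cells (19.5%, 15.8% to 23.7%), the highest share of the 5 regions, and 65.3% of all regions were open in fewer cells. The second, from 6394249 to 6394710 (461 bp), was open in 39 cells (9.40%, 6.77% to 12.6%). It ended 5.29 kb before the end of the window. At least 1 Dab2 region was open in 25.8% of cells (21.6% to 30.3%). The intervals of the first Dab2 region and of Ttr overlap, as do those of the second Dab2 region and the second Apoa1 region, so the order of these neighbours is not established. The first Dab2 region went from 5.77% of the shallowest to 34.95% of the deepest class, and the second from 6.73% to 13.6%.

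**Figure D1:**
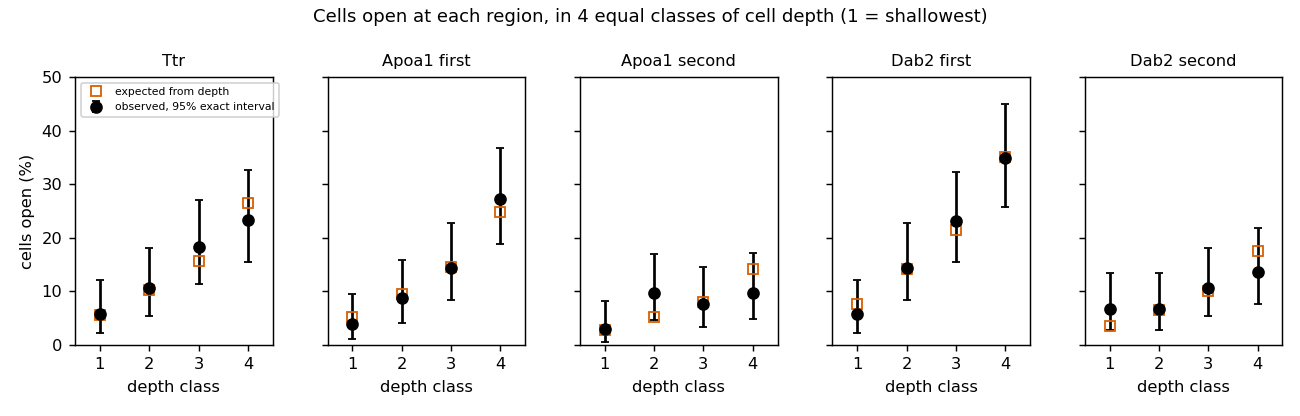
Percentage of cells open (vertical axis) at each of the 5 regions in 4 equal classes of cells from the shallowest (1) to the deepest (4). Filled circles are observed shares with exact 95% intervals, open squares the shares expected from depth. The first Dab2 region reached 34.95% in the deepest class and the second Apoa1 region 9.71%, below the 14.1% expected there but with that value inside its interval.

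All regions but the first at Apoa1 were open more often in 1 group of cells. Cells were divided into 3 clusters from the autosomes other than 5, 9, 15 and 18, so that no region on a chromosome of the 4 windows took part in defining them. Cluster 1 held 46.1% of the clustered cells, cluster 2 held 27.3% and cluster 3, with 110 cells, held 26.6%, with a median of 3543, 4778 and 3712 open regions. Shares were compared as a depth-scaled ratio, the observed over the expected number of open cells in a cluster divided by the same in the other cells, and a ratio of at least 1.5 or at most its inverse was called higher or lower. In cluster 3, 4 of the 5 members were higher and none was lower. Over all 4409 regions on the same 4 chromosomes, 16.9% were higher in cluster 3 and 32.7% were lower, and the median ratio was 0.922. With 5 members, this is a count beside a background and not a test. Each listed region was open in at least 31 cells. Outside cluster 3, the second Apoa1 region was open in 9 cells, the second Dab2 region in 7 and Ttr in 30. These regions reached 31 only with their cluster 3 cells, so the listing itself favours a high ratio for them. The clusters go by number, since defining markers of a cell type could not be located on mm9 and whether cluster 3 holds visceral endoderm was not determined.

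The second Dab2 region was the most unequal. It was open in 32 of the 110 cells of cluster 3 (29.1%, 20.8% to 38.5%), in 4 of cluster 1 (2.09%, 0.573% to 5.28%) and in 3 of cluster 2 (2.65%, 0.551% to 7.56%). The depth-scaled ratio of cluster 3 to the other cells was 13.7 (counting interval 5.93 to 36.7), above that of 99.5% of regions on these chromosomes. That rank is over regions of any frequency and is a description only, since this region was listed only with its cluster 3 cells. The first Dab2 region was open in 33.6% of cluster 3 (24.9% to 43.3%), 13.1% of cluster 1 and 16.8% of cluster 2. Its ratio was 2.48 (1.56 to 3.92). The intervals of the 2 ratios do not overlap. However, the first region was open in 44 cells outside cluster 3 and did not need its cluster 3 cells to be listed. The listing therefore favours a high ratio for the second region only, and the difference is a description. In cluster 3, 52.7% of the cells (42.98% to 62.3%) had at least 1 Dab2 region open, against 16.1% (12.2% to 20.7%) of the other cells.

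At the secreted carriers, Ttr was open in 30 of 110 cells of cluster 3 (27.3%, 19.2% to 36.6%) and in 30 of the others (9.87%, 6.76% to 13.8%), a ratio of 2.97 (1.73 to 5.10). The second Apoa1 region was open in 22 cells of cluster 3 (20%, 13.0% to 28.7%). Outside it 9 cells were open (2.96%, 1.36% to 5.55%), which gave a ratio of 7.33 (3.25 to 18.1). The first Apoa1 region did not share this pattern. It was open in 12 cells of cluster 3 (10.9%, 5.77% to 18.3%) and in 14.5% of the others, a ratio of 0.811 (0.390 to 1.56). The intervals of the 2 Apoa1 ratios do not overlap. However, the first region was open in 44 cells outside cluster 3, while the second was listed only with its cluster 3 cells. The listing favours a high ratio for the second region only, so the difference is a description. The share of the first Apoa1 region was 16.8% in cluster 1 (11.8% to 22.8%), 1.88 times that of the other cells after scaling (1.07 to 3.34), where 16.5% of regions on these chromosomes were higher. In cluster 1 the other 4 members were lower, at ratios of 0.162 to 0.626, and in cluster 2 all 5 were lower, at 0.165 to 0.622. Lower regions made up 17.5% and 19.4% of those on these chromosomes in clusters 1 and 2. Each cluster is set against the other cells, so the ratios of the 3 clusters are not separate evidence.

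**Figure D2:**
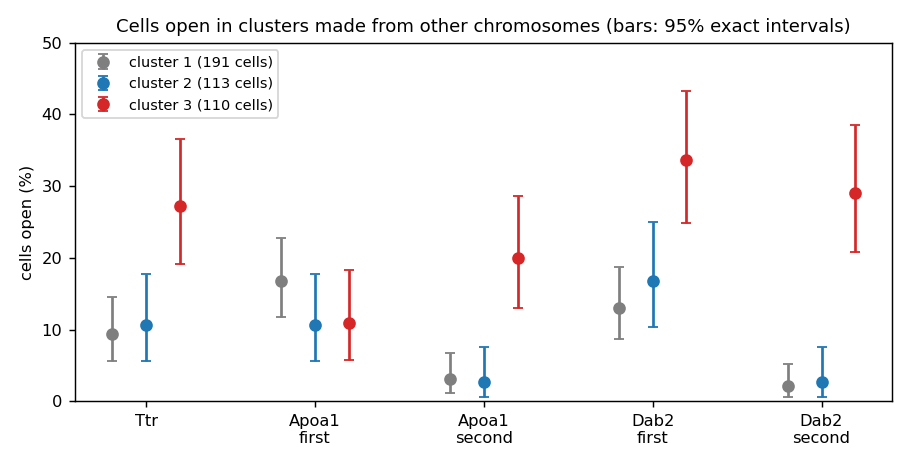
Percentage of cells open (vertical axis) at each of the 5 regions in clusters 1, 2 and 3, made without the chromosomes of these regions; bars are exact 95% intervals. Cluster 3 is highest at 4 regions, from 20% to 33.6%, and cluster 1 is highest at the first Apoa1 region with 16.8%.

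The labels distinguish cells only by the number in their titles, whose meaning is not given. Divided by it into 4 consecutive sets, cluster 3 made up 38.5%, 37.9%, 14.4% and 15.5% of the cells. The ratio of cluster 3 to other cells was above 1 in each set for each of the 4 higher regions. It ran from 1.38 to 7.12 for Ttr, from 3.83 to 10.5 for the second Apoa1 region, from 1.89 to 3.99 for the first Dab2 region and from 1.70 to 30.6 for the second. The lowest of these last values rests on 1 open cell of cluster 3 in the fourth set. Many of the counting intervals within a set included 1. For Ttr only that of the second set excluded it (2.27 to 29.5), and 15 of its 30 open cells of cluster 3 were in that set. For the first Dab2 region only that of the first set did (1.44 to 12.7). For the second Apoa1 and second Dab2 regions the interval of the fourth set included 1 (0.561 to 22.6 and 0.0323 to 21.1). The second Dab2 region itself was open in 16.3%, 11.5%, 5.77% and 3.88% of the cells of the 4 sets.

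The first Apoa1 region also varied with title number. It was open in 9, 6, 26 and 15 cells of the 4 sets, which was 0.674, 0.428, 1.79 and 1.07 times the number expected from depth. Within cluster 1 it was open in 2 of 36, 1 of 41, 19 of 59 and 10 of 55 cells. Without the third set its cluster 1 ratio was 1.21, no longer past the fold, and its cluster 3 ratio was 1.41 in place of 0.811. What distinguishes cells of that set was not tested.

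The regions flanking the Alb and Afp window were examined because the window itself was empty. Of 8 regions within 300 kb of it, 5 were higher in cluster 3 and 1 was lower, with a median ratio of 4.56. Over all 4409 regions on chromosomes 5, 9, 15 and 18, 16.9% were higher and 32.7% were lower. The nearest one before the window was open in 31 cells, of which 24 were in cluster 3 (21.8% of that cluster, 14.5% to 30.7%), a ratio of 10.3 (4.30 to 28.3). The nearest one after it was also open in 31 cells, with 22 in cluster 3 and a ratio of 7.33 (3.25 to 18.1). A further region 61.6 kb before the window was open in 34 cells, 28 of them in cluster 3, with a ratio of 13.99 (5.68 to 41.3), whereas 1 region 102.2 kb before it was open in 1 cell of cluster 3 out of 31 (ratio 0.100, 0.00245 to 0.602). The regions 61.6 kb and 102.2 kb before the window were picked after their values were seen. Outside cluster 3, the nearest region before the window was open in 7 cells, the nearest after it in 9 and the one at 61.6 kb in 6. The remaining higher regions, 262.4 kb before the window and 109.4 kb after it, were open in 26 and 10 cells outside cluster 3. All 5 higher regions thus reached the 31 cells of every listed region only with their cluster 3 cells, which favours a high ratio. Their count and the median ratio are therefore a description only. In RefSeq's gene order Ankrd17 precedes Alb and Afm follows Afp. Which genes these flanks belong to was not determined on mm9.

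**Figure D3:**
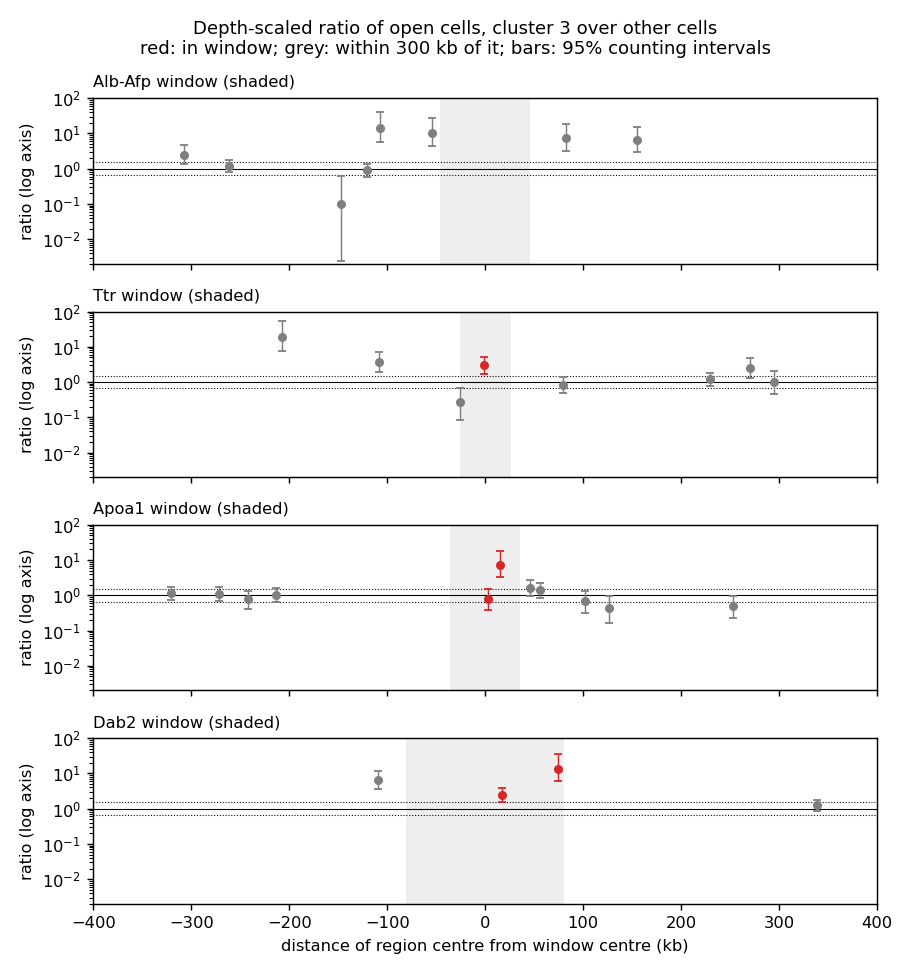
Depth-scaled ratio of open cells in cluster 3 to other cells (vertical log axis) against the distance of each region's centre from the centre of its window in kb, for regions in the window (red, 5 in all) and within 300 kb of it (grey, 26 in all). Bars are counting intervals, the solid line is 1 and dotted lines mark the fold of 1.5. The empty Alb and Afp window lies between regions with ratios of 10.3 and 7.33, and the red points run from 0.811 to 13.7.

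Several pairs of these regions were open in the same cells more often than depth alone gives, each with the second Apoa1 or the second Dab2 region as a partner. Of 8 pairs of regions at different loci, 4 had at least 1.5 times the expected number of cells with both open and none was at or below the inverse, with a median of 1.40. Over all 253900764 pairs of regions on different chromosomes, 4.22% reached 1.5 and the median was 0.995. Pairs as rarely open as these scatter widely by counting alone. Ttr, the second Apoa1 region and the second Dab2 region reached the 31 cells of every listed region only with their cluster 3 cells. Listing through the same group of cells favours co-opening in it, and the background is over pairs of any frequency. The 4 pairs are therefore a description beside 4.22% and not a test.

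The second Apoa1 region and the first Dab2 region were both open in 15 cells where 8.30 were expected, 1.81 times as many (1.01 to 2.98). Ttr and the second Dab2 region were both open in 14 cells, 1.79 times the expected 7.81 (0.981 to 3.01). The second Apoa1 region was open together with the second Dab2 region in 8 cells, 1.95 times the expected 4.11 (0.841 to 3.84), and together with Ttr in 10 cells, 1.60 times the expected 6.23 (0.769 to 2.95). The interval excluded 1 for the first of these 4 pairs. The 3 pairs with the first Apoa1 region lay between 0.821 and 1.08, and Ttr with the first Dab2 region was at 1.20 (0.724 to 1.88). Correlations of depth-corrected values over all cells ran from -0.00395 to 0.148 for these 8 pairs, all weak, and the points share the library depth of each cell. Without the second set of title numbers, 1 of the 8 pairs reached 1.5.

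Neither pair of regions within a locus reached 1.5. The 2 Apoa1 regions were both open in 6 cells where 5.83 were expected (1.03, 0.377 to 2.24), and 8.40% of pairs 10 to 50 kb apart reached 1.5. The 2 Dab2 regions were both open in 13 cells where 10.4 were expected (1.25, 0.666 to 2.14), and 6.04% of pairs 50 to 200 kb apart reached 1.5. Without the first set of title numbers the Dab2 value was 0.628. All 3 loci had a region open in 12 cells (2.89%, 1.503% to 4.996%) where depth alone gave 6.77.

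With cluster membership added to the expectation, no pair at different loci reached 1.5. The expected number then came from depth and from each region's own share of open cells within each cluster, a choice made after seeing the data. It was thus fitted to the same cells it is set beside, so nearness to it is a description. Whether the clusters account for the co-opening was not tested. The 8 pairs at different loci ranged from 0.999 to 1.41, with a median of 1.14 in place of 1.40. In cluster 3 alone, the second Apoa1 and the second Dab2 region were both open in 7 cells where 7.71 were expected, and Ttr and the second Dab2 region in 12 where 10.4 were expected. At least 2 of the 5 regions were open in 37 of the 110 cells of cluster 3 (33.6%), against 13.9 expected from depth and 38.3 from depth and cluster. In cluster 1 this was 15 cells (7.85%, with 23.3 and 14.7 expected) and in cluster 2 it was 8 cells (7.08%, with 21.998 and 8.24 expected). None of the 5 regions was open in 29.1% of cluster 3, 64.9% of cluster 1 and 67.3% of cluster 2, and 1 cell, in cluster 3, had all 5 open.

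**Figure D4:**
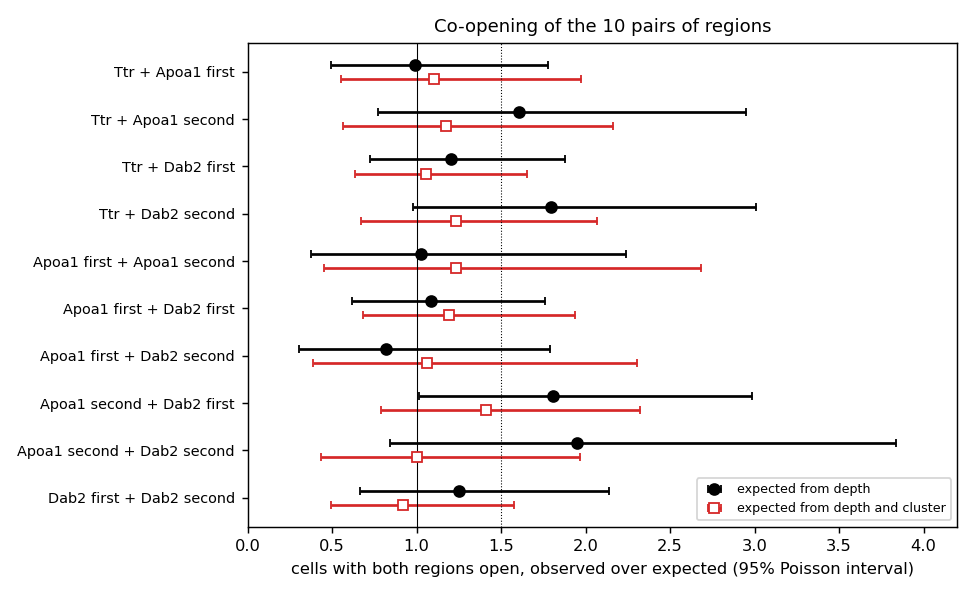
Cells with both regions of a pair open, as observed over expected (horizontal axis), for the 10 pairs of the 5 regions; circles use the number expected from depth, squares the number expected from depth and cluster, and bars are exact Poisson 95% intervals. The 4 pairs past the dotted line at 1.5 have circles from 1.60 to 1.95, and no square passes it.

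The regions on other chromosomes whose openness over cells was most like that of each locus were taken by the correlation of depth-corrected values, summed over the regions of the locus, among regions open in at least 10% of cells. For Ttr the closest was chromosome 6 from 122722590 to 122723277, at 0.334, followed by chromosome 16 from 16377028 to 16377619 at 0.326 and chromosome 19 from 10760261 to 10760605 at 0.280. For Apoa1 it was chromosome 17 from 32102562 to 32102921 at 0.293, then chromosome 10 from 43182683 to 43183412 at 0.265 and chromosome 15 from 77228020 to 77228532 at 0.263. For Dab2 it was chromosome 5 from 100098935 to 100099582 at 0.429, then chromosome 5 from 118447407 to 118447738 at 0.398 and chromosome 6 from 47278235 to 47278632 at 0.390. These are the highest of 16439, 16025 and 16285 values over all cells, so they lean high.

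Their cluster 3 ratios of 7.10 to 26.2 are a description only, since they were chosen for their likeness to loci that were themselves higher there and 6 of the 9 lie on chromosomes used for clustering. The first Dab2 companion on chromosome 5 was open in 56 cells and shared 34 of them with the Dab2 locus, where 19.6 were expected (1.73 times, 1.20 to 2.42). The first Ttr companion was open in 68 cells and shared 27 with Ttr, where 13.4 were expected (2.02 times, 1.33 to 2.94). Both companions were chosen for the highest correlation with their locus over these same cells. More shared cells than expected follow from that choice, so these values and their intervals are a description only.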

How the data were processed

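Single-cell ATAC-seq values of 415 cells in 1 group were analysed. The deposited values are signal, a whole number per region and cell; 37.6% of the values above 0 equal 148, the pattern of aligned bases of a read pair, which was taken as 1 fragment. The submitters' processing notes name MACS2 and build mm9 without their roles. For the aligner, duplicate removal and region selection, methods were not given in the sources used here.

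From the table, regions overlapping the windows by at least 1 base were taken, and open means a value above 0. Depth was scaled with the fitted expectation. Clustering used TF-IDF weights (scaled by 10000), singular value components 2 to 10 and k-means with 50 starts and 3 clusters, the number the study is known to have used, in the 414 cells with at least 1000 fragments. Share intervals are Clopper-Pearson, intervals of counts exact Poisson and intervals of ratios conditional binomial. Python 3.11.15, numpy 2.4.6, scipy 1.17.1, pandas 2.3.3 and scikit-learn 1.9.0 were used, and the calculations were tested on simulated data. All regions in the windows are named, with the 3 regions most like each locus. The members and lists were chosen with earlier results of these data known. Alternatives varied the definition of open, depth, windows, clusters and title sets. RefSeq gave gene order and 250 promoter bases on GRCm38.p6. Marker lists of other cell types had been planned, need an annotation on mm9 and were not run.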

Additional observations from a re-analysis of the deposited data

How the results depend on the processing

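Of the alternative values for 20 results, 17 left the interval of the reported value or 1.5 times a count. The share of open cells moved with the definition of open and with depth. With at least 1 whole fragment required it was 9.16% at Ttr, 9.40% at Apoa1 and 17.1% at Dab2. With more than 1 fragment it was 3.61%, 4.10% and 6.27%. In cells at or above the median depth it was 20.7%, 27.4% and 35.6%, and with cells thinned to 1500 open regions (expected value, 33 shallower cells left out) 5.19%, 6.83% and 10.002%. Windows widened by 20 kb held 1 region for Alb and Afp, 2 for Ttr and 3 for Apoa1. The Apoa1 count is not among the 17, since it stayed within 1.5 times the reported count. Leaving out each set of title numbers gave a co-opening of the 2 Dab2 regions of 0.628 to 1.56 and 1 to 4 pairs of regions at different loci past 1.5. With depth and cluster in the expectation, 0 such pairs were past 1.5. The 45 alternatives of the cluster 3 ratios stayed within their intervals, and each of them kept 4 of the 5 regions higher. No paired analysis was possible because there is 1 group. Counting limits precision most at regions open in 31 to 39 cells.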

Other observations

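Around the other windows, the flanks were mixed. Of all 26 regions within 300 kb of the 4 windows, 10 were higher in cluster 3 and 4 were lower, with a median ratio of 1.19. Beside Alb and Afp lay 5 of these 10. Over all 4409 regions on the same chromosomes, 16.9% were higher and 32.7% were lower, with a median ratio of 0.922. Beside Ttr, a region 181.95 kb before the window was open in 43 cells, 37 of them in cluster 3, with a ratio of 18.4 (counting interval 7.71 to 53.4), while the region whose end lies 0.144 kb before the window was lower there, with 5 of its 59 open cells in cluster 3 and a ratio of 0.275 (0.0858 to 0.682). RefSeq's gene order has Dsg2 just before Ttr, and the table does not tie either region to a gene. Beside Dab2, the region 29.4 kb before the window was open in 61 cells, 42 of them in cluster 3 (38.2% of that cluster, 29.1% to 47.9%), with a ratio of 6.56 (3.73 to 11.9). Beside Apoa1, 1 of 9 flanking regions was higher, at 1.64 (0.965 to 2.74), and 2 were lower. These flanking regions were singled out after their values were seen. Of the 10 higher regions, only the one beside Apoa1 was open in at least 31 cells outside cluster 3 (45 cells). The Ttr flank at 181.95 kb had 6 such cells and the Dab2 flank 19. All but the Apoa1 region thus reached the 31 cells of every listed region only with their cluster 3 cells, which favours a high ratio. The counts of higher regions are therefore a description only.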
